A study of Mus musculus with 6 samples.

Results

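Isolated internal peaks are sites where RNA was crosslinked in a pull-down of the Quaking (Qk) proteins and where no other peak was listed within 5000 nt on the same strand, inside long loci. They were taken from the anti-PanQk peak list, on nuclear chromosomes and with each interval counted once. A member lay more than 5000 nt from every other listed peak on its strand, in the anti-PanQk or the control list, and was neither the first nor the last peak of its gene ID over both lists. This rule found 1757 of 21752 anti-PanQk intervals, under 1002 gene IDs. Members were thus chosen by their distance to listed peaks and their order within the gene ID, and both are given below as descriptions only. The nearest listed neighbour lay 12293 nt away at the median, with quartiles of 7713 and 20918 nt and a highest value of 214690 nt. The members closest to the limit had neighbours at 5001, 5022 and 5023 nt, and the internal peaks just left out had neighbours at 4998, 4998 and 4996 nt.

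The series is an iCLIP study of C2C12, a mouse myoblast cell line whose dividing precursor cells can be made to fuse into multinucleate myotubes. iCLIP maps protein contacts on RNA by crosslinking with ultraviolet light, immunoprecipitating the protein and sequencing the RNA that stays bound. Both lists used here came from myoblasts irradiated with 400 mJ. One is from 1 library made with anti-PanQk, an antibody to the Qk proteins in general, and the other is from 1 control library made with an antibody against the HA tag. The other 4 of the 6 libraries (2 of anti-PanQk from myotubes differentiated for 72 h, 1 with anti-Qk6 and 1 with anti-Qk7 in myoblasts) were not analysed here. Neither library used had a replicate, so no test between conditions was possible. Shares carry exact Clopper-Pearson 95% intervals, and medians carry 95% intervals from exact binomial order statistics. Where a count is 0, the limit given is 3 counts of the total, which is lower than the upper end of the exact interval. All of these cover counting error only, and peaks of 1 gene ID are not independent of each other. The depth of the libraries is unknown: nuclear anti-PanQk intervals hold 183578 reads and nuclear control intervals 144357, and these numbers were not scaled.

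Qk proteins belong to the STAR family of RNA-binding proteins, which contact RNA through a KH domain and are known to favour sites with the letters ACUAA near a shorter companion motif. Some isoforms stay in the nucleus and act on splicing through sites in introns, and others act in the cytoplasm on stability and translation through sites in 3′ untranslated regions. In muscle cells Qk is known as a splicing regulator, which is why a lone contact deep inside a long gene is of interest as a candidate intronic site. Whether a member lies in an intron was not analysed here, since that needs an annotation of the mm9 build used by the files. The lists give Ensembl gene IDs without symbols, and none could be paired with a symbol, so loci are described by their mm9 position (1-based). Here a locus runs from the outermost left to the outermost right peak of a gene ID over both lists, which is not the annotated gene.

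The loci were long. The 1002 loci had a median length of 77569 nt (quartiles 43560 and 135791 nt), the shortest spanned 11587 nt, and 693 of them (69.2%) spanned at least 50000 nt. Most held few isolated internal peaks: 589 gene IDs had 1, 242 had 2, 83 had 3, and 47 had 5 or more. These 47 held 271 of the 1757 peaks. Members lay on 20 chromosomes, which leaves out only chromosome Y among the nuclear ones. Longer loci held more of them (Spearman rho 0.52 over the 1002 gene IDs, a description of loci that share 1 library). The rule itself leaves no room for a member in a locus under 10000 nt. Each further member needs another stretch of the locus free of listed peaks. The length of these loci and the positive rho therefore follow in part from the rule, and how much of either goes beyond it was not tested.

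The control list held isolated internal peaks in nearly the same proportion. Under the same rule, 625 of its 8051 intervals qualified, under 470 gene IDs. Members made up 8.08% of the anti-PanQk intervals (95% interval 7.72 to 8.45) and isolated internal peaks made up 7.76% of the control intervals (7.19 to 8.37), so the intervals overlap. The 2 kinds also lay in loci of like size, with a median locus length of 104598 nt per anti-PanQk member (98339 to 111644) and 105520 nt per isolated control peak (96838 to 114505). Per 100000 nt of locus, anti-PanQk members numbered 1.20 and isolated control peaks 0.42 in loci of 50 to 100 kb. In loci from 200 to 400 kb these densities were 0.92 and 0.29, and in loci of at least 400 kb they were 0.44 and 0.17. They were 0.91 and 0.30 in loci of 10000 to 50000 nt, and 1.02 and 0.38 in loci of 100 to 200 kb. Both densities were lowest in the longest class, and the anti-PanQk one was the higher in each. The classes hold every member but not all of the 625 isolated control peaks, so they do not cover the 2 kinds equally. The densities were not scaled for the size of the lists, which hold 21752 anti-PanQk and 8051 control intervals.

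Members held few reads, as given in the last part of each peak name, a number the rule did not use. At the lowest number listed, 3 reads, stood 1287 of the 1757 members (73.2%, 71.1 to 75.3), against 31.96% (31.1 to 32.9) of the 10659 other internal anti-PanQk peaks and a background of 44.3% over all nuclear anti-PanQk intervals. Isolated peaks that were first or last of their gene ID also held few reads. This set mixes end peaks with peaks that were the only one listed under their ID. The lower quartile of its locus lengths was 32 nt. Of the 4765 anti-PanQk peaks that were equally isolated but first or last of their gene ID, 65.5% (64.1 to 66.8) had 3 reads, their median was also 3, and 2.73% (2.28 to 3.23) had 10 or more. Internal peaks with a neighbour up to 1000 nt below the distance limit had 3 reads in 67.5% of 234 cases (61.1 to 73.5), against 75.8% (68.9 to 81.9) of the 178 members up to 1000 nt above it. Another 328 members had 4 reads and 87 had 5. The median member held 3 reads (quartiles of 3 and 4, highest 19), against 5 (quartiles of 3 and 9, highest 1257) for the other internal anti-PanQk peaks. Peaks with 10 or more reads were 8 members (0.455%, 0.197 to 0.895), against 23.6% (22.8 to 24.4) of the other internal ones and a background of 16.2%. At a deposited p-value of at most 1e-06 were 11 members (0.626%, 0.313 to 1.12), against 26.95% of the other internal peaks and a background of 18.5%. The deposited p-value comes from the authors' peak caller and follows the read number closely. Altogether the members held 6025 reads, 16.4% of the 36691 anti-PanQk reads listed under the same 1002 gene IDs. These gene IDs had a median of 4 anti-PanQk peaks. In 395 of them a member had at least as many reads as any other anti-PanQk peak of the ID, and in 136 it was the strongest alone. The 395 include ties, and also IDs whose only listed anti-PanQk peak was a member. How many of the ties were at 3 reads was not counted.

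Isolated peaks of the control list were much stronger as listed. Their median was 16 reads, with quartiles of 11 and 18 and a highest value of 36, and 484 of the 625 (77.4%, 73.96 to 80.7) had 10 to 26 reads, beside a background of 64.2% over all control intervals. Only 8 of the 1757 members had 10 to 26 reads. At 3 reads were 73.2% of members and 8.64% (6.56 to 11.1) of isolated control peaks, beside a background of 9.71% of control intervals. At a deposited p-value of at most 1e-06 were 0.626% of members and 79.8% (76.5 to 82.9) of isolated control peaks, beside a background of 73.2% of control intervals. The read numbers are not scaled for depth, but the 2 histograms differ in shape: that of the members is highest at 3 reads and declines steeply, and that of the isolated control peaks is highest at 16 reads (62 peaks) and 18 reads (61 peaks), above its 54 peaks at 3 reads. The contrast was also found where both kinds shared a gene ID. Isolated internal peaks of both lists occurred under 282 gene IDs, which are 28.1% of those with a member and 60% of those with an isolated control peak. The 643 members there had a median of 3 reads and at most 9, and the 394 isolated control peaks had a median of 16 reads and at most 29.

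**Figure D1:**
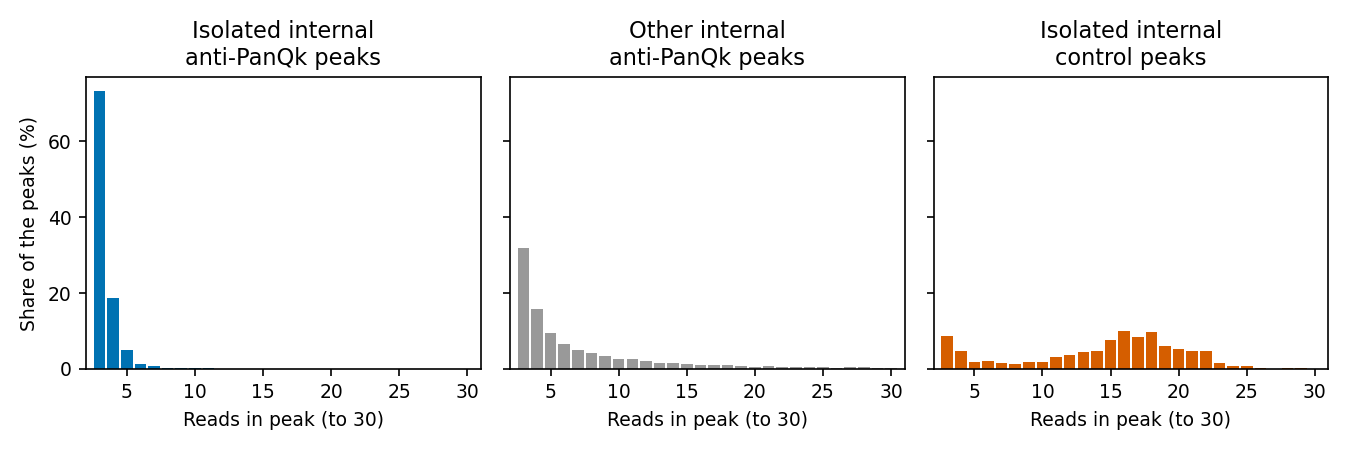
Share of peaks (%, y axis) at each read number from 3 to 30 (x axis) for isolated internal anti-PanQk peaks (left, n = 1757), other internal anti-PanQk peaks (middle, n = 10659) and isolated internal control peaks (right, n = 625), 1 library per list. Members pile up at 3 reads (73.2%), whereas isolated control peaks are most frequent around 16 to 18 reads.

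The share of peaks that were isolated and internal ran differently with strength in the 2 lists. In the anti-PanQk list it was 13.3% (12.7 to 14.0) of the 9641 peaks with 3 reads, 7.56% (6.88 to 8.29) with 4 or 5 reads, 1.52% (1.12 to 2.01) with 6 to 9 reads and 0.298% (0.129 to 0.586) with 10 to 26 reads. None of the 836 anti-PanQk peaks with 27 or more reads was one, which allows a share of up to 0.359%. In the control list the shares were 6.91% (5.23 to 8.91) at 3 reads, 5.75% (4.16 to 7.72) at 4 or 5, 4.81% (3.49 to 6.44) at 6 to 9, 9.36% (8.58 to 10.2) at 10 to 26 and 0.78% (0.213 to 1.98) at 27 or more. The anti-PanQk share was the higher at 3 reads and the lower at 6 to 9 and at 10 to 26 reads, with intervals that do not overlap, and at 4 or 5 reads the intervals overlap.

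**Figure D2:**
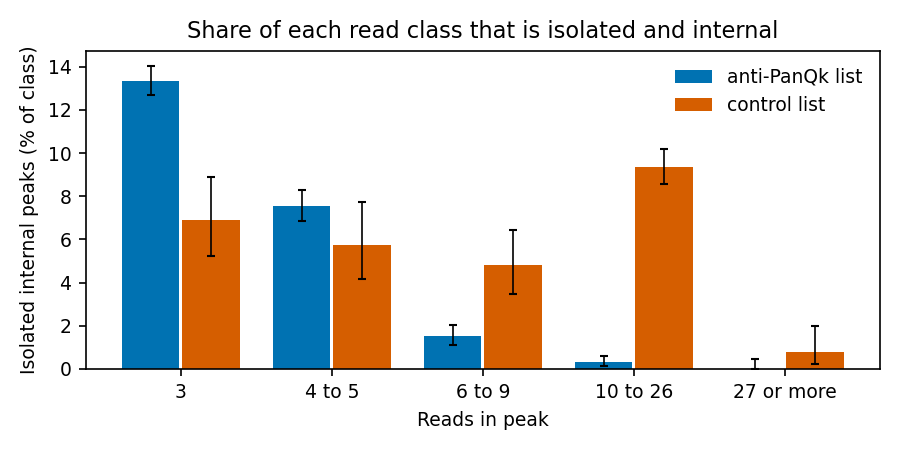
Isolated internal peaks as a share of all nuclear peaks of a read class (%, y axis) by reads in the peak (x axis), for the anti-PanQk list (left bar of each pair) and the control list (right bar). Bars start at 0 and error lines are exact 95% binomial intervals; the anti-PanQk share falls from 13.3% at 3 reads to 0 at 27 or more, and the control share is highest, at 9.36%, at 10 to 26 reads.

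Of the 11 members with 9 or more reads, 9 were the strongest anti-PanQk peaks of their gene IDs. The highest, 19 reads, lay at chrX:54007515-54007566 on the plus strand, 22473 nt from its nearest neighbour, under ENSMUSG00000023092. That locus held 142 anti-PanQk and 27 control peaks, and its strongest anti-PanQk peak had 633 reads. The next, of 15 reads, lay at chr6:125422471-125422530 on the minus strand, in a locus of 34.4 kb with 25 anti-PanQk and 9 control peaks and a strongest peak of 87 reads. In both of these loci the member was therefore far weaker than the main peaks.

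The following 9 were each the strongest anti-PanQk peak of their gene ID. A member of 13 reads at chr14:64276497-64276544 (plus strand) and one of 12 reads at chr15:12065838-12065845 (plus strand) lay in loci of 54.8 and 66.3 kb with 4 and 11 anti-PanQk peaks and no control peak. Members of 11 reads lay at chr10:14175936-14175978 and chr17:51236290-51236331, both on the minus strand, in loci of 91.7 and 318 kb with 0 and 1 control peaks. Members of 10 reads lay at chr3:105756936-105757063 and chr6:39569500-39569534, both on the minus strand, in loci with 1 and 4 control peaks. The first of these was 128 nt wide, the widest of all members, and its nearest neighbour was only 5053 nt away. Members of 9 reads lay at chr1:52242282-52242361 and chr1:164635664-164635728 on the minus strand and at chr18:5758342-5758384 on the plus strand, with 0, 2 and 6 control peaks in their loci. Another 5 members had 8 reads, of which 2 were the strongest of their gene ID and 2 lay under an ID with no control peak. The first of these 5 by position lay at chr1:8766636-8766673 (minus strand), in a locus whose strongest anti-PanQk peak had 112 reads. Of the 11 members with 9 or more reads, 4 lay under gene IDs with no listed control peak.

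The width of a member depended on its strand. On the plus strand, 908 members had a median width of 10 nt (quartiles 9 and 10), and on the minus strand 849 members had a median width of 32 nt (quartiles 29 and 41). A width of exactly 10 nt was found in 429 plus-strand members (47.2%) and 1 minus-strand member, and a width of exactly 32 nt in 273 minus-strand members (32.2%) and 7 plus-strand ones. In all 429 plus-strand members of 10 nt, the inner segment that the caller gives for each peak began at the left edge, which is the upstream one. In all 273 minus-strand members of 32 nt, the middle of that segment fell between 40% and 60% of the width of the peak. The same split ran through the weakest peaks of both lists. At 3 reads the median widths on the plus and minus strands were 10 and 32 nt for members, 10 and 32 nt for other internal anti-PanQk peaks and 10 and 32 nt for isolated control peaks. Over all read numbers the medians of the other internal anti-PanQk peaks were close, at 35 nt on the plus and 37 nt on the minus strand. The split was still present among their narrow peaks. A width of at most 10 nt was found in 33.3% of them on the plus and 13.3% on the minus strand. Isolated control peaks of all read numbers had medians of 11 and 32 nt. Among 3-read peaks, a width of at most 10 nt was found in 84.8% (81.8 to 87.4) of plus-strand and 2.06% (1.10 to 3.50) of minus-strand members, and in 80.8% (60.6 to 93.4) of 26 plus-strand and 0 of 28 minus-strand isolated control peaks, where a count of 0 allows up to 10.7%. Reads per member did not follow the strand: 72.2% of plus-strand and 74.3% of minus-strand members had 3 reads.

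**Figure D3:**
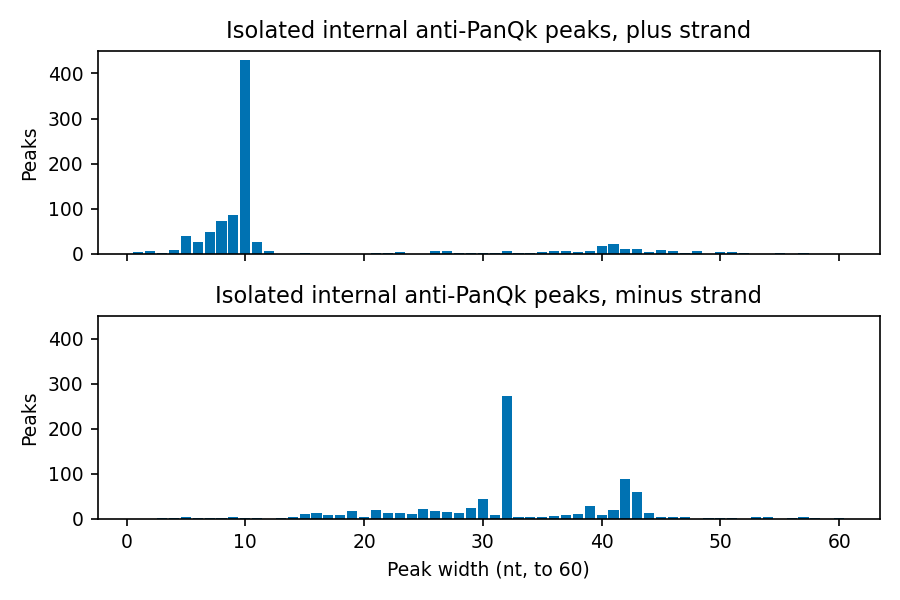
Number of isolated internal anti-PanQk peaks (y axis) at each width from 1 to 60 nt (x axis), on the plus strand (top, n = 908) and on the minus strand (bottom, n = 849), from 1 library. The plus strand has 429 peaks at 10 nt and the minus strand 273 at 32 nt.

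The pooled median width of 23 nt (20 to 25) for members, against 36 nt (35 to 37) for other internal anti-PanQk peaks, therefore mixes 2 strand-bound widths. Wide peaks were fewer among members. The gap in percentage points was smaller among peaks of 3 reads alone, where wide peaks were few in both sets. On the plus strand 1.21% of members (0.606 to 2.16) were over 50 nt wide, against 26.8% (25.6 to 28.0) of the other internal peaks. On the minus strand the shares were 2.59% (1.63 to 3.90) and 24.0% (22.9 to 25.2). Among peaks of 3 reads alone they were 0.305% (0.0369 to 1.10) of members against 3.00% (2.26 to 3.91) of other internal peaks on the plus strand, and 0.634% (0.173 to 1.62) against 2.62% (1.90 to 3.51) on the minus strand. Isolated first or last anti-PanQk peaks of all read numbers were over 50 nt wide in 5.98% (5.07 to 6.996) of cases on the plus and 7.57% (6.53 to 8.72) on the minus strand.

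Members were found along the whole of their loci, with fewer at both ends. Positions were measured from the upstream end. Over all 1757 members, the first and last of 10 equal parts of the locus held 5.24% (4.24 to 6.38) and 5.01% (4.04 to 6.13), and the 8 parts between them held 9.05% to 12.7% each. The rule keeps 5000 nt free at each end, which is a large share of an end part in a short locus. In loci of at least 100 kb the first and last parts held 8.06% (6.37 to 10.0) and 7.95% (6.27 to 9.90) of 906 members. When these long loci were cut into 3 equal parts, the members split into 305 in the upstream part, 293 in the middle part and 308 in the downstream part (33.7%, 32.3% and 33.996%). The 328 isolated control peaks split into 100, 104 and 124. The other internal anti-PanQk peaks were crowded downstream, with 221, 152 and 963 of 1336 in the 3 parts. In the most downstream 10% of the locus lay 7.95% (6.27 to 9.90) of members, 58.2% (55.5 to 60.9) of the other internal anti-PanQk peaks and 9.15% (6.26 to 12.8) of isolated control peaks. Because the rule takes away every peak with a near neighbour, dense stretches such as the downstream ends could not supply members, so the contrast with the other internal peaks follows in part from the rule. The gaps to the neighbours were alike on both sides, with medians of 19588 nt upstream and 18781 nt downstream.

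**Figure D4:**
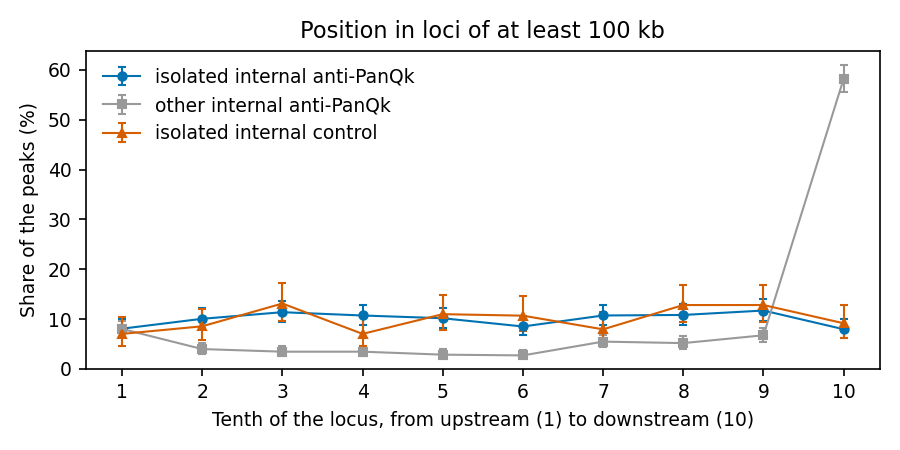
Share of peaks (%, y axis) in each of 10 equal parts of the locus, from its upstream to its downstream end (x axis), in loci of at least 100 kb, for isolated internal anti-PanQk peaks (circles, n = 906), other internal anti-PanQk peaks (squares, n = 1336) and isolated internal control peaks (triangles, n = 328), with exact 95% binomial intervals. Members lie between 7.95% and 11.7% in every part, and the other internal anti-PanQk peaks reach 58.2% in the last.

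Isolation holds among listed peaks, and the numbering in the peak names has gaps between them. Each peak name carries a running number within its gene ID. Over 18766 pairs of neighbouring entries in both lists the number always increased with the coordinate. A missing number may stand for a cluster that was numbered but not listed, which the lists do not show directly. Of the members, 1434 had a listed anti-PanQk neighbour of the same gene ID on both sides. Only 96 of these (6.69%, 5.46 to 8.11) had no number missing on either side. For 853 (59.5%, 56.9 to 62.0) numbers were missing on both sides, and a member had a median of 2 missing numbers around it and at most 8. Of the other internal anti-PanQk peaks, 39.2% (38.2 to 40.2) had none missing, and of 210 isolated control peaks with such neighbours 16.7% (11.9 to 22.4). Members were chosen for wide gaps (median nearest gap 12293 nt, against 57 nt for other internal anti-PanQk peaks). Wider gaps leave more room for missing numbers, so that contrast may follow in part from the rule. What a missing number stands for, and where it would lie, was not tested. The other 323 members (18.4%) lacked a listed anti-PanQk peak of their gene ID on at least 1 side. They were internal only through control peaks.

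Most gene IDs with a member also carried a control peak. Of the 1002 gene IDs, 743 (74.2%, 71.3 to 76.8) carried a control peak, beside a background of 47.4% of all gene IDs with an anti-PanQk peak. The rule needs peaks on both sides and so prefers gene IDs with several peaks. Control peaks also counted in the order that made a peak first or last. The 323 members internal only through control peaks therefore lie under IDs that carry them by the rule. The 47.4% is thus not a like-for-like background. Among the 783 gene IDs with at least 3 anti-PanQk peaks and a locus of at least 50 kb, a control peak was present in 77.8% of the 617 that had a member and in 77.7% of the 166 that had none. Control peaks helped to set the ends of these loci as well. A control peak within 5000 nt on the same strand also kept a peak from being a member. Whether an ID had a member thus depended in part on its control peaks. The shares of 77.8% and 77.7% therefore cannot show whether control peaks and members go together. No interval is given for either share. No control peak at all was listed under 259 gene IDs, which held 375 members.

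The most members were found in 2 loci with 9 and 7 loci with 7. Described here are both of the first and 6 of the second kind, taken by the reads in their members and then by gene ID. These 8 loci spanned 197 to 600 kb and held 60 members, 58 of them with 3 or 4 reads, and each carried at least 1 control peak. The locus left out, at chr5:81452621-82218831 (plus strand, 766 kb), also had 7 members, all of 3 reads, among 10 anti-PanQk and 2 control peaks. The locus under ENSMUSG00000033306 (chr16:24398125-24992242, plus strand) had 9 members among 62 anti-PanQk peaks. Their reads, from upstream to downstream, were 4, 4, 4, 3, 3, 7, 3, 3 and 4, against 34 for the strongest anti-PanQk peak of the ID, and 8 of the 9 were at most 11 nt wide. They lay between 5.93% and 93.96% of the way along the locus, with nearest neighbours 6026 to 46589 nt away. The strongest, of 7 reads, lay at chr16:24850915-24850925. Members held 9.23% of the anti-PanQk reads there.

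A locus at chr5:36359838-36709345 on the minus strand also had 9 members, of 18 anti-PanQk peaks, each with 3 or 4 reads, and these held 49.2% of its 61 anti-PanQk reads. The locus at chr13:103523996-104124443 (minus strand) had the fewest anti-PanQk peaks of the 8 described. Members were 7 of its 9 anti-PanQk peaks, with 3 or 4 reads each and 79.3% of its 29 reads. The locus at chr4:123027493-123325784 (minus strand) had 7 members beside 10 control peaks, 4 of which were themselves isolated and internal. At chr6:33368941-33922410 (plus strand), 6 of the 7 members had 3 reads and the other had 4, and 5 of the 7 were exactly 10 nt wide. The loci at chr1:91354113-91791067 (plus strand), chr14:87055651-87530123 (minus strand) and chr2:60588402-60785547 (minus strand) had 7 members each of 16, 13 and 19 anti-PanQk peaks, with at most 4, 4 and 3 reads in a member.

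**Figure D5:**
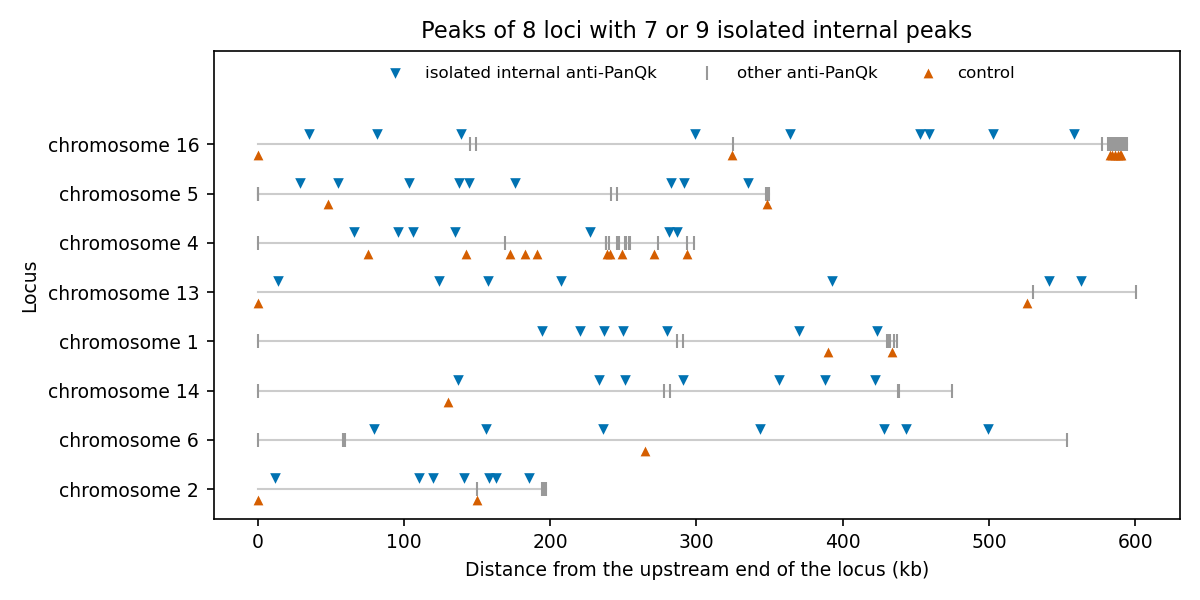
Peaks of 8 of the 9 loci with 7 or more isolated internal anti-PanQk peaks, by distance from the upstream end of the locus (kb, x axis), 1 locus per row named by its chromosome. Downward triangles are isolated internal anti-PanQk peaks, ticks are other anti-PanQk peaks and upward triangles are control peaks; the 60 members lie along the loci, and the ticks of the chromosome 16 locus gather at its downstream end.

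The 5 members farthest from any other listed peak all had 3 reads. They lay 214690 nt from the nearest neighbour at chr17:67231140-67231171, 213055 nt at chr14:12599589-12599598, 191446 nt at chr13:29695654-29695695, 141325 nt at chr1:181028223-181028254 and 139506 nt at chr6:93861249-93861280. The chromosome 14 member was on the plus strand and 10 nt wide, and the other 4 were on the minus strand and 32 or 42 nt wide. Each of these loci spanned 431 to 688 kb and held at most 9 anti-PanQk peaks. This read number was also that of 73.2% of all members.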

How the data were processed

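Per the file headers, the authors called peaks with CLIPper on 1 library each, on mm9. Bowtie2 and TopHat are named in the submitters' processing notes, with no version stated there. The deposited lists give a p-value per peak. The number that ends each deposited peak name was read as the count of reads in the peak, since the p-value follows it. Whether reads were collapsed by molecular identifier is not given. The lists hold 22488 and 8496 entries, or 21752 and 8051 intervals after the mitochondrial chromosome and 322 and 210 repeats were left out.

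Distances between interval edges were computed in Python 3.11.15 with numpy 2.4.6 and pandas 2.3.3, and intervals with scipy 1.17.1. The code was tested on simulated data. An interval under several gene IDs (12 members) had to be internal to each and was counted under the first listed.

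Members, lists and comparisons were chosen with earlier results of these data known. Named were the 12 members with the most reads (ties broken by position), 8 gene IDs with the most members (ties broken by reads in them, then by ID) and the 5 members with the farthest neighbour. Gene lists and sequence motifs could not be used, as no symbols or mm9 sequence were available here.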

Additional observations from a re-analysis of the deposited data

How the results depend on the processing

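Settings chosen after seeing the data were peaks over 10 nt wide, each strand alone, and anti-PanQk peaks alone, without the control list. No paired analysis was possible because each list is 1 library, so no library could be left out either. Over all settings, 20 values moved and 70 did not, where a count moved if it changed by over 1.5 times and a share or median if it left its 95% interval. A distance of 2000 nt gave 2696 members and 980 isolated control peaks and a median position of 52.7% along the locus. A distance of 10000 nt gave 1059 and 377. Peaks of 4 or more reads gave 382 members under 295 gene IDs, with a median of 4 reads and 32 nt. In that setting 3.40% of members had p at most 1e-06, 90.5% of gene IDs carried a control peak and 83.9% of isolated control peaks had 10 to 26 reads. Peaks over 10 nt wide gave 953 members under 582 gene IDs and 381 isolated control peaks, since mostly plus-strand peaks are removed. The members then had a median width of 32 nt, 70.8% had 3 reads and 1.15% had p at most 1e-06. The median width was 10 nt on the plus strand alone and 32 nt on the minus strand alone. Counts were lower where fewer peaks were admitted or the distance was longer. The causes of the changes were not tested. By this measure, counting peaks as listed, neighbours on either strand and leaving out overlapping loci moved none of the values computed for them. Anti-PanQk peaks alone moved none either, but 0.986% of members then had p at most 1e-06 against 0.626%, which is over 1.5 times and within the interval. That setting gave 1623 members under 887 gene IDs, against 1757 and 1002. Leaving control peaks out of the distance could only add members, so the order within the gene ID must have changed too. Its members are thus not all the same ones, and how many differ was not counted. The alternatives for motifs were not run. Most members hold 3 reads, so the depth limits what can be said of any single one.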

Other observations

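Chromosomes supplied members unevenly. Chromosome 11 held 6.26% of members (5.17 to 7.50) and 10.6% of all other anti-PanQk intervals (10.2 to 11.1), and chromosome 10 held 3.30% (2.52 to 4.25) and 5.66% (5.34 to 5.99). The X chromosome held 2.90% of members (2.17 to 3.80) and 4.95% of the others (4.65 to 5.26). Chromosome 2 held 8.31% (7.06 to 9.70) and 6.49% (6.15 to 6.84), and chromosome 18 held 4.50% (3.58 to 5.57) and 2.95% (2.72 to 3.19). Chromosome 14 held 4.33% (3.42 to 5.38) and 3.05% (2.81 to 3.29). Of the 20 chromosomes compared, those named are the ones whose intervals do not overlap. These shares take the peaks of a gene ID as independent, and the differences were not tested.

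Peaks on the opposite strand were rare near members. A listed peak of either list lay within 5000 nt on the opposite strand for 5 of the 1757 members (0.285%, 0.0925 to 0.663) and for 428 of the 10659 other internal anti-PanQk peaks (4.02%, 3.65 to 4.41). It did so for 0 of the 625 isolated control peaks, where 3 counts of the total allow a share of up to 0.48%.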
